A study of Mus musculus with 28 samples.

Results

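Ribosome biogenesis factors are the proteins that transcribe, modify, cut and fold ribosomal RNA (rRNA) and load it with ribosomal proteins. The set described here was given as a list of 38 gene symbols. Of these, 37 had a row among the 24015 genes of the count table, and Noc2l was not analysed here. All 37 passed the filter on low counts that left 15238 genes, so none is missing from the tests below. By role they comprise 4 genes of RNA polymerase I transcription, 4 nucleolar chaperones and helicases, 7 proteins of small nucleolar ribonucleoprotein particles (snoRNPs), 11 small subunit assembly factors and 11 large subunit assembly factors.

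Ribosome production starts in the nucleolus, where RNA polymerase I transcribes a long rRNA precursor. SnoRNPs guide methylation and pseudouridylation of this precursor, assembly factors cut and fold it into the precursors of the small and large subunits, and these are exported and finished in the cytoplasm. The rate of the process follows growth and division, many of its genes are textbook targets of the transcription factor MYC, and adult blood stem cells are known for a tightly set rate of protein synthesis.

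The study followed mouse embryonic cells from endothelium to blood around the dorsal aorta. Each of the 28 libraries was made from 100 sorted cells, and every embryo carried the transgene labelled 23GFP, whose driving element the labels do not give. The E9.5 pro-HSC/HPC, E10.5 pre-HSC I and E10.5 pre-HSC II populations (3 libraries each) are emerging blood cells. Hemogenic endothelium (HE), the endothelium that buds off blood cells, was taken at E8.5 (4 libraries), E9.5 and E10.5 (3 libraries each), and endothelial cells (EC) were taken at the same days (3 libraries each). The label of the tissue is AGM+VU for E10.5 libraries but PAS+VU for the others, so that the later day and the change of tissue label cannot be told apart. HSC stands for hematopoietic stem cell and HPC for hematopoietic progenitor cell. No treatment is given. The replicates are described as biological, but whether they came from separate embryos and how many embryos were pooled in a library is not given in the sources used here, so p-values measure the spread between these libraries.

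Library totals ran from 16308918 to 31405603 counts. Values are given as CPM, the count of a gene scaled to a common library size. Cdh5, the endothelial cadherin, was detected in every library, at very different levels. Its mean was 105 CPM in E8.5 EC, against 518 CPM in E9.5 EC, 414 CPM in E10.5 EC and 329 CPM in E8.5 HE. Only pre-HSC II had a lower mean, at 77.2 CPM. Runx1, the factor required for blood cells to bud from endothelium, had 3.46, 3.42, 3.14 and 1.03 CPM in E8.5 HE, against 4.43, 5.14 and 1.25 CPM in E8.5 EC, so this defining marker did not set E8.5 HE apart. It had 36.9, 30.8 and 37.4 CPM in E9.5 HE, against 3.12, 3.37 and 3.76 CPM in E9.5 EC. Ptprc, which encodes the leukocyte antigen CD45, had 0.749, 1.25 and 0.817 CPM in pro-HSC/HPC libraries, 5.66, 13.3 and 15.2 CPM in those of pre-HSC I and 64.3, 133 and 103 CPM in those of pre-HSC II. Hemoglobin reads were counted as those of the embryonic globin genes Hbb-bh1, Hbb-y and Hba-x only. They made up 1.11% of the counts of pro-HSC/HPC replicate 2 (95% Wilson interval 1.10% to 1.11%), 0.422% of those of replicate 3 (0.419% to 0.424%) and 0.172% of those of pre-HSC I replicate 3 (0.171% to 0.174%). E8.5 HE replicate 3 was the lowest E8.5 HE library in the mean log2(CPM + 1) of the 37 members, with 6.71 against 7.16 to 7.58. A Dixon gap test for an outlying library did not flag it.

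All 37 members differed among the 9 populations (edgeR quasi-likelihood F test over 8 coefficients, Benjamini-Hochberg adjusted over 15238 genes), against 45% of all genes tested. They were chosen with earlier results of these data known, so the count is a description. Ncl, Gnl3 and Nolc1 had the smallest p, and Utp20, Polr1a and Noc3l the largest. The population means had 1 shape for nearly the whole list. E8.5 EC held the highest mean of 33 members, against 24.0% of all genes tested, pre-HSC II that of 3 and E9.5 EC that of Utp20. E10.5 HE held the lowest mean of 34 members, against 14.995% of all genes tested.

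**Figure D1:**
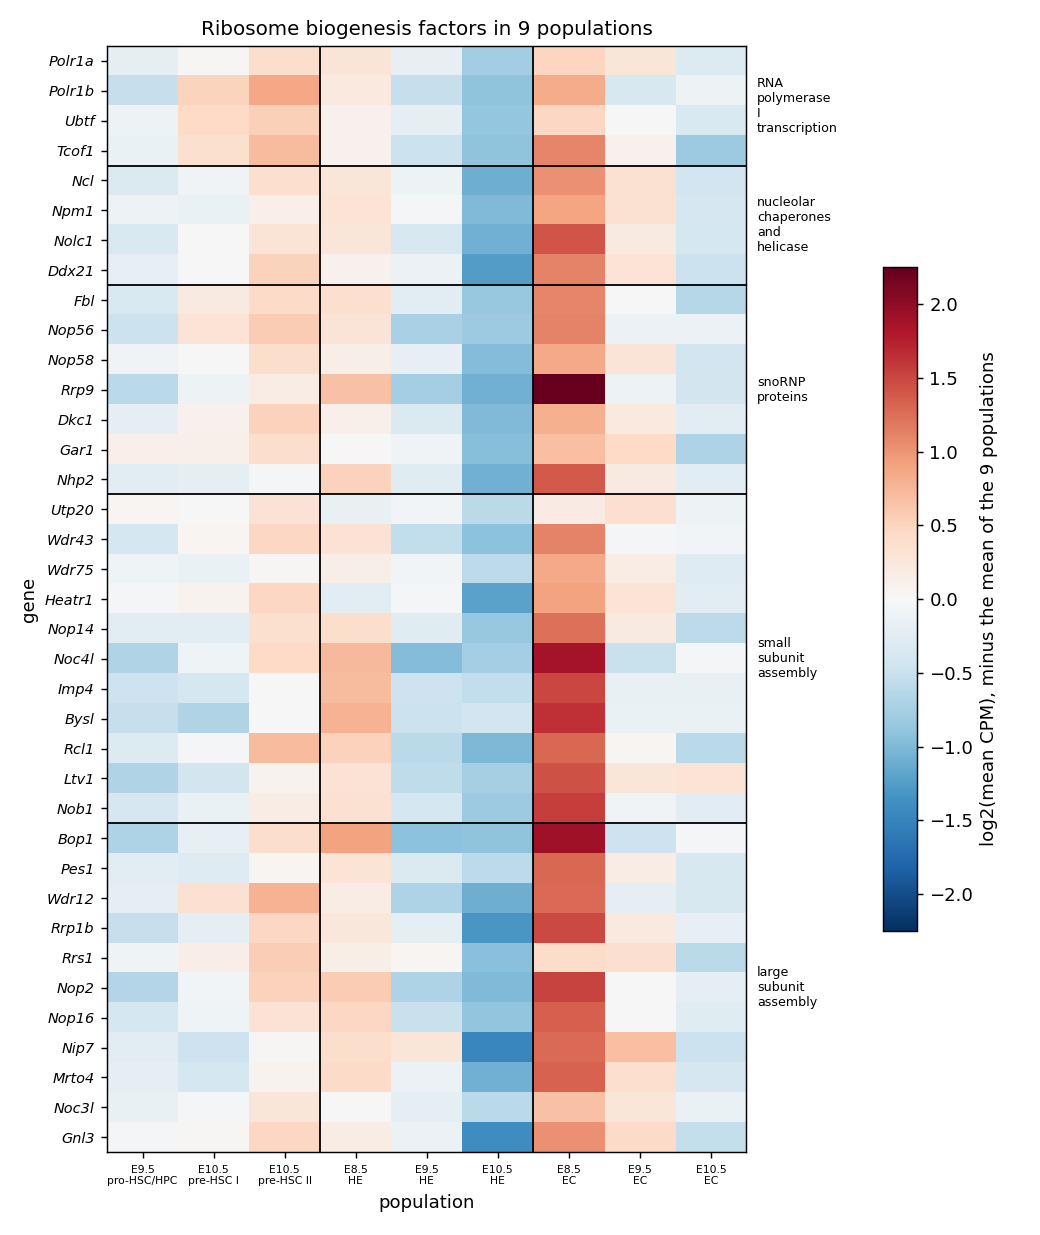
Mean level of each member in each population, as log2 of the mean CPM minus that gene's mean over the 9 populations (colour), with genes grouped by role (rows) and populations in columns. The E8.5 EC column is the darkest red and the E10.5 HE column the darkest blue, and pre-HSC II is above the middle for nearly every row.

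The mean log2(CPM + 1) over the 37 members was 6.67 ± 0.0286 in pro-HSC/HPC. At E10.5 it was 6.91 ± 0.0714 for pre-HSC I and 7.32 ± 0.0550 for pre-HSC II (SD, n = 3 libraries each). In HE it was 7.22 ± 0.387 at E8.5 (n = 4), 6.63 ± 0.159 at E9.5 and 6.04 ± 0.136 at E10.5 (n = 3 each). In EC it was 8.11 ± 0.210 at E8.5, 7.09 ± 0.122 at E9.5 and 6.64 ± 0.223 at E10.5 (n = 3 each). The highest library of E10.5 HE had 6.13, against 6.43 in the lowest library of any other population. The highest library outside E8.5 EC had 7.58, against 7.87 in the lowest of E8.5 EC. Between these ends the order was pre-HSC II, E8.5 HE, E9.5 EC, pre-HSC I, pro-HSC/HPC, E10.5 EC and E9.5 HE. In it E8.5 HE overlapped both its neighbours, E10.5 EC overlapped both of its own, and pre-HSC I stood apart from E9.5 EC above it by little and from pro-HSC/HPC below it by more. Over all genes tested the mean lay between 3.50 and 3.65 in each population. Counts scaled within a library show shares of messenger RNA: fewer cells of a type and less RNA per cell cannot be told apart, and RNA per cell was not measured.

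The span between highest and lowest population mean was 4.30-fold for the median member, 1.97-fold for Utp20 and 10.1-fold for Rrp9. In pre-HSC II the median member had 62.4% of its E8.5 EC level and 108% of its E8.5 HE level. In E10.5 HE it had 23.4% of its E8.5 EC level. Per kilobase of gene model, mean CPM over the populations was highest for Npm1, at 3018 CPM per kb, and lowest for Polr1a, at 7.31 CPM per kb.

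RefSeq start-site windows of 250 bases before to 50 after the start (GRCm38.p6) were found for 32 of the 37 members and were searched on both strands for CACGTG, the canonical E-box that MYC and MAX bind. The letters occurred in 6 of the 32 (18.75%), against 11.3% of the genes tested that have such a window and 8.09% of all genes with one. The near-matches CACGCG and CATGTG occurred in 8 and 6 of the 32, against 18.8% and 10.7% of the genes tested. The 6 windows with CACGTG are shown because they hold the letters searched for. Each is a stretch around the match on the gene's own strand, 5′ to 3′, with the match in capitals. A match is a description of letters and not a measured binding site.
Imp4, chr1:34439696-34439725, plus strand: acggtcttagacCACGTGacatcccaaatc
Nop2, chr6:125131811-125131840, plus strand: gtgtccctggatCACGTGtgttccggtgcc
Ltv1, chr10:13193092-13193121, minus strand: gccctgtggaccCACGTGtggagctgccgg
Utp20, chr10:88826765-88826789, minus strand: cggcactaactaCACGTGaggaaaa
Pes1, chr11:3963965-3963994, plus strand: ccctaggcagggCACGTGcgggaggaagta
Wdr43, chr17:71616220-71616249, plus strand: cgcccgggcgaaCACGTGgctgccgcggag
The match begins 121 bases before the start in Imp4 and 60 before it in Nop2. With the start counted as base 1, it begins at base 3 in Pes1, 18 in Wdr43, 29 in Ltv1 and 38 in Utp20. In EC at E9.5 against E8.5 the log2 differences of these genes were -1.68 for Imp4, -1.51 for Nop2 and -1.14 for Ltv1. They were -1.14 for Wdr43, -1.12 for Pes1 and 0.19 for Utp20, whose level varied least of all members. A link between the letters and the level was not tested.

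RNA polymerase I transcription is represented by the catalytic-core subunits Polr1a and Polr1b, the rDNA-binding factor Ubtf and the nucleolar factor Tcof1 (treacle). Gene positions below are those of the mm9 build in the deposited table. Polr1b (chr2:128926732-128952331) had 43.3, 27.3 and 34.9 CPM in pro-HSC/HPC, 32.8, 92.4 and 88.7 CPM in pre-HSC I and 64.6, 100.5 and 111 CPM in pre-HSC II. In HE it had 85.8, 53.2, 41.5 and 55.7 CPM at E8.5, 45.7, 31.7 and 28.3 CPM at E9.5 and 15.6, 33.7 and 31.3 CPM at E10.5. In EC it had 102, 85.8 and 83.9 CPM at E8.5, 45.0, 37.5 and 35.8 CPM at E9.5 and 32.6, 51.3 and 56.7 CPM at E10.5. All pre-HSC II libraries lay above all E10.5 HE libraries, whereas pre-HSC I replicate 1 lay within the E10.5 HE range.

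Polr1a (chr6:71859047-71929355) was flatter. Its blood values were 39.5, 33.2 and 39.4 CPM in pro-HSC/HPC, 35.8, 53.1 and 43.6 CPM in pre-HSC I and 34.9, 66.7 and 68.4 CPM in pre-HSC II. HE libraries had 64.9, 61.3, 30.5 and 53.7 CPM at E8.5, 39.2, 37.5 and 37.7 CPM at E9.5 and 18.9, 16.9 and 39.4 CPM at E10.5. EC libraries had 71.6, 69.4 and 41.1 CPM at E8.5, 52.0, 52.7 and 52.6 CPM at E9.5 and 26.0, 36.8 and 42.5 CPM at E10.5. HE and EC overlapped at E8.5 and at E10.5 and were apart only at E9.5, where every HE library was lower.

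Ubtf (chr11:102165874-102180410) had 58.0, 57.9 and 83.6 CPM in pro-HSC/HPC, 61.7, 114 and 117 CPM in pre-HSC I and 83.6, 96.3 and 134 CPM in pre-HSC II. For HE the values were 70.7, 132, 59.9 and 43.2 CPM at E8.5, 66.1, 51.6 and 67.4 CPM at E9.5 and 42.5, 28.1 and 47.6 CPM at E10.5. For EC they were 109, 99.3 and 86.8 CPM at E8.5, 75.3, 60.3 and 79.0 CPM at E9.5 and 52.0, 59.9 and 56.9 CPM at E10.5. Every pre-HSC library was above every E10.5 HE library, and E8.5 HE spread the most. Tcof1 had 89.8, 50.01 and 83.9 CPM in pro-HSC/HPC, 71.9, 114 and 133 CPM in pre-HSC I and 111, 118 and 177 CPM in pre-HSC II. In HE there were 116, 135, 48.0 and 55.4 CPM at E8.5, 62.6, 57.7 and 59.1 CPM at E9.5 and 45.8, 42.6 and 44.8 CPM at E10.5, and in EC 198, 191 and 145.4 CPM at E8.5, 97.1, 82.4 and 86.7 CPM at E9.5 and 45.0, 47.7 and 49.3 CPM at E10.5. For Tcof1, E10.5 HE and E10.5 EC overlapped at a common low level, below every pre-HSC library.

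**Figure D2:**
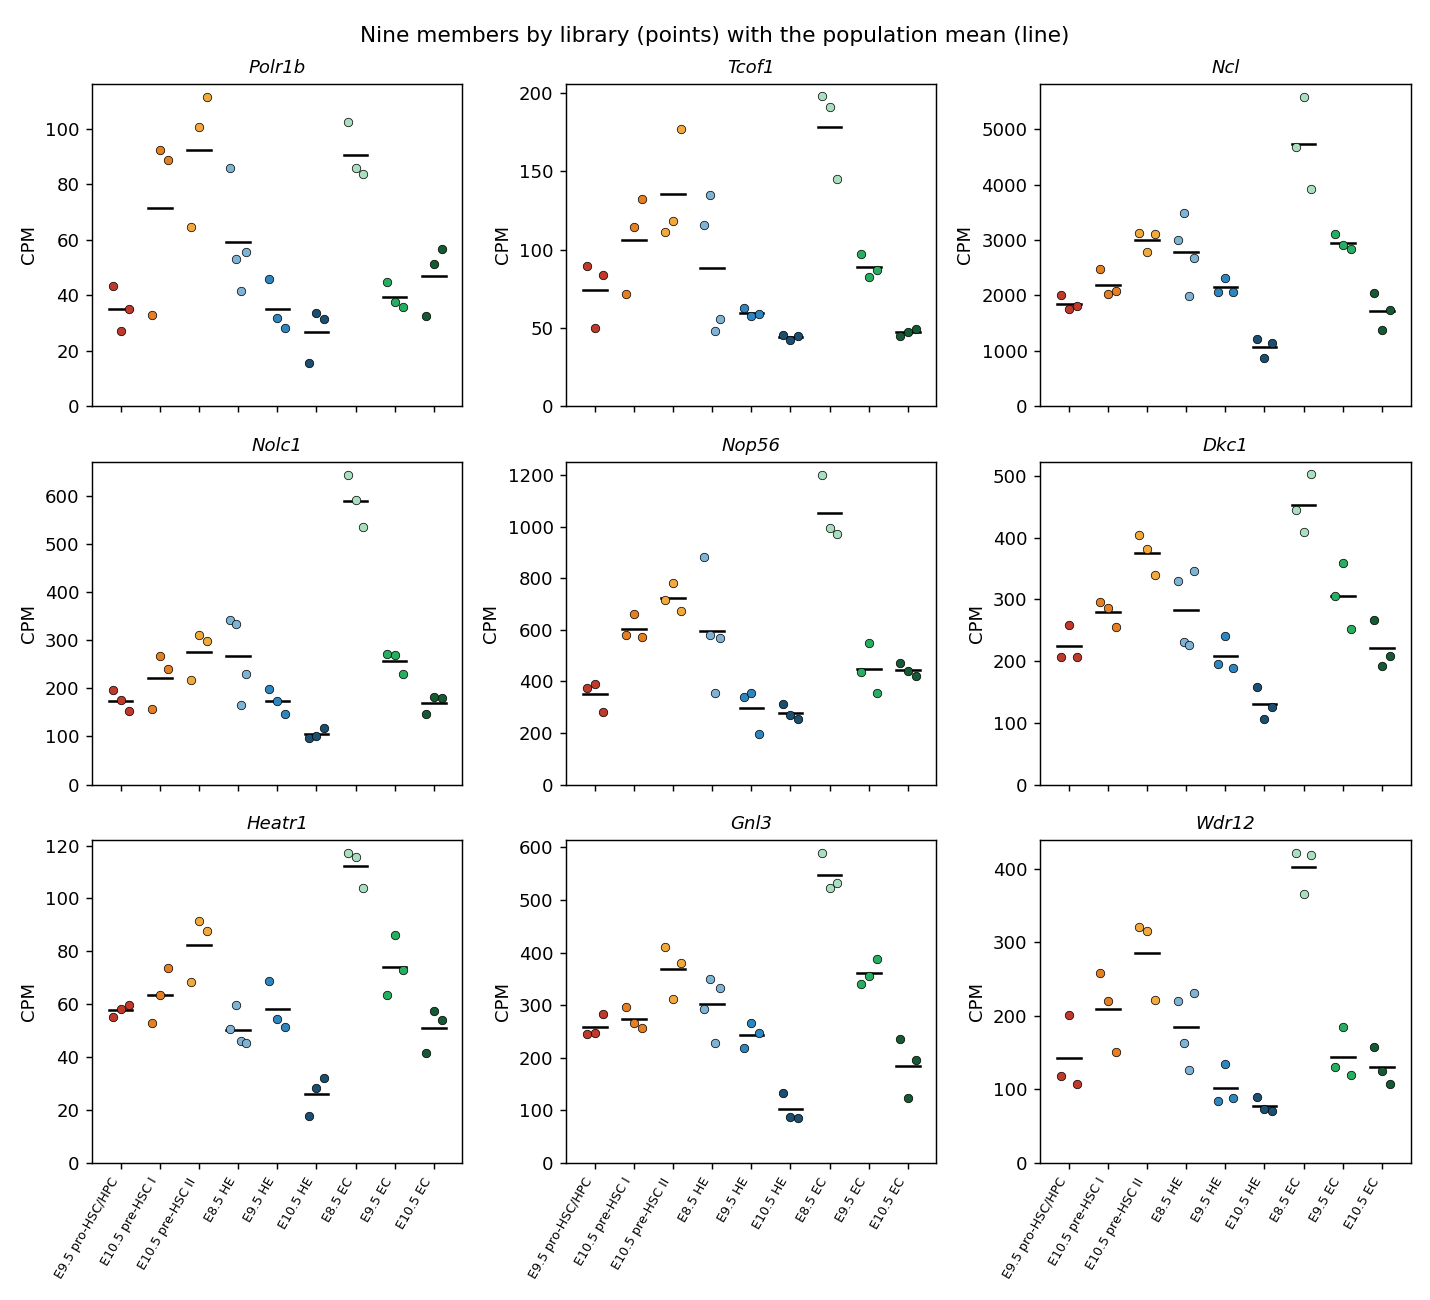
CPM of 9 members in each library (points, coloured by population) with the population mean (line), populations in columns and a linear axis from 0 for each gene. In each panel E10.5 HE has the lowest mean, pre-HSC I and pre-HSC II have higher means, and E8.5 EC has the highest mean except in the Polr1b panel, where pre-HSC II is higher.

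Among the nucleolar chaperones, nucleolin (Ncl, chr1:88241294-88256030), which binds nascent rRNA, varied most clearly relative to its spread. It had 2002, 1749 and 1804 CPM in pro-HSC/HPC, 2485, 2026 and 2076 CPM in pre-HSC I and 3133, 2781 and 3114 CPM in pre-HSC II. HE had 3009, 3487, 1995 and 2674 CPM at E8.5, 2060, 2322 and 2065 CPM at E9.5 and 1219, 875 and 1140 CPM at E10.5. EC had 4675, 5589 and 3929 CPM at E8.5, 3111, 2910 and 2836 CPM at E9.5 and 2045, 1375 and 1745 CPM at E10.5. On each day every HE library was below every EC library. At E10.5 the libraries of pre-HSC II were all above those of pre-HSC I, which were all above those of HE.

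Nucleophosmin (Npm1, chr11:33052498-33063206), an abundant histone and ribosome chaperone, had 4150, 5345 and 4164 CPM in pro-HSC/HPC, 5798, 3856 and 3537 CPM in pre-HSC I and 6631, 4679 and 4589 CPM in pre-HSC II. Its HE libraries had 6076, 6706, 5062 and 6394 CPM at E8.5, 4088, 5309 and 4928 CPM at E9.5 and 3056, 1876 and 2483 CPM at E10.5, and its EC libraries 8379, 9230 and 9688 CPM at E8.5, 5589, 6923 and 6148 CPM at E9.5 and 5231, 2796 and 3325 CPM at E10.5. HE was below EC without overlap at E8.5 and E9.5 but overlapped it at E10.5. Npm1 has near-identical processed copies in the genome, and since the handling of reads with several matches is not given in the sources used here, its level is uncertain. Nolc1 (chr19:46150337-46160033), a snoRNP chaperone, had 196, 175 and 153 CPM in pro-HSC/HPC, 157, 266 and 240.3 CPM in pre-HSC I and 216, 309 and 299 CPM in pre-HSC II. HE held 342, 334, 165 and 229 CPM at E8.5, 199, 174 and 147 CPM at E9.5 and 97.4, 100.4 and 118 CPM at E10.5, and EC held 643, 592 and 534 CPM at E8.5, 272, 269 and 229 CPM at E9.5 and 146, 182 and 179 CPM at E10.5. Like Ncl, it was lower in every HE library than in every EC library of its day. The helicase Ddx21 (chr10:62042995-62065046) had 187, 135 and 195 CPM in pro-HSC/HPC, 151, 230.0 and 214 CPM in pre-HSC I and 247, 261 and 329 CPM in pre-HSC II. It had 244, 279, 144.9 and 174 CPM in E8.5 HE, 208, 189.6 and 136 CPM in E9.5 HE and 93.4, 75.7 and 76.5 CPM in E10.5 HE, against 448, 438 and 392.5 CPM in E8.5 EC, 251, 239 and 238 CPM in E9.5 EC and 165, 97.9 and 159 CPM in E10.5 EC. It too was lower in HE than in EC on each day without overlap.

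The snoRNP proteins include the box C/D core (the rRNA methyltransferase Fbl, with Nop56 and Nop58), the box H/ACA core (the pseudouridine synthase Dkc1, with Gar1 and Nhp2) and Rrp9, of the particle that guides the early cleavages. Nop56 (chr2:130100148-130105049) had 375, 391 and 283 CPM in pro-HSC/HPC, 579.6, 662 and 573 CPM in pre-HSC I and 714, 783 and 671 CPM in pre-HSC II. There were 882, 581, 354 and 567 CPM in E8.5 HE, 337, 355 and 195 CPM in E9.5 HE and 310.4, 270.3 and 253 CPM in E10.5 HE, and 1200, 992 and 969.6 CPM in E8.5 EC, 435, 549.8 and 356 CPM in E9.5 EC and 470.5, 438 and 422 CPM in E10.5 EC. Nop56 was lower in HE on each day, at E9.5 only just, and its pre-HSC II libraries all exceeded those of pre-HSC I. Dkc1 (chrX:72341193-72355115) had 207, 258 and 207 CPM in pro-HSC/HPC, 296, 286 and 256 CPM in pre-HSC I and 405, 382 and 339 CPM in pre-HSC II. It stood at 330.3, 232, 226 and 346 CPM in E8.5 HE, 195, 241 and 189 CPM in E9.5 HE and 159, 107 and 126 CPM in E10.5 HE, against 445, 409.6 and 503 CPM in E8.5 EC, 305, 359 and 252 CPM in E9.5 EC and 266, 192 and 208 CPM in E10.5 EC. Dkc1 was lower in every HE library than in every EC library of its day.

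Fbl (chr7:28954767-28964288) had 97.8, 63.9 and 114 CPM in pro-HSC/HPC, 150.2, 113 and 140.1 CPM in pre-HSC I and 186, 112 and 173 CPM in pre-HSC II. It had 157, 225, 115 and 111 CPM in E8.5 HE, 104, 83.8 and 105 CPM in E9.5 HE and 83.2, 48.6 and 62.3 CPM in E10.5 HE, against 277, 317 and 161 CPM in E8.5 EC, 129.7, 78.3 and 141 CPM in E9.5 EC and 102, 55.3 and 69.5 CPM in E10.5 EC. HE and EC overlapped on each day, while all pre-HSC libraries were above E10.5 HE. Rrp9 (chr9:106379640-106387746) had 22.5, 13.1 and 22.4 CPM in pro-HSC/HPC, 34.99, 21.8 and 25.2 CPM in pre-HSC I and 39.7, 26.1 and 33.5 CPM in pre-HSC II. It had 82.7, 52.8, 24.96 and 25.8 CPM in E8.5 HE, 16.6, 21.2 and 14.7 CPM in E9.5 HE and 19.8, 7.62 and 14.7 CPM in E10.5 HE, and 183, 165 and 79.2 CPM in E8.5 EC, 26.99, 26.1 and 28.7 CPM in E9.5 EC and 30.6, 15.1 and 20.7 CPM in E10.5 EC. The highest later EC library of Rrp9 had 30.6 CPM, against 79.2 CPM in the lowest E8.5 EC library. Gar1, the least abundant of the group in CPM, lay between 6.42 and 36.1 CPM over all libraries.

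Small subunit assembly factors build the processome around the rRNA precursor. Heatr1 (chr13:12487642-12531160) and Utp20 (chr10:88209352-88289559) are large scaffold proteins of it. Heatr1 had 55.1, 58.3 and 59.8 CPM in pro-HSC/HPC, 52.97, 63.7 and 73.8 CPM in pre-HSC I and 68.3, 91.6 and 87.6 CPM in pre-HSC II. It had 50.5, 59.6, 46.3 and 45.2 CPM in E8.5 HE, 68.8, 54.3 and 51.3 CPM in E9.5 HE and 17.9, 28.4 and 31.9 CPM in E10.5 HE, against 117, 116 and 104 CPM in E8.5 EC, 63.6, 86.1 and 72.9 CPM in E9.5 EC and 41.4, 57.3 and 54.1 CPM in E10.5 EC. HE and EC were apart at E8.5 and at E10.5 and overlapped at E9.5. Utp20 had 82.6, 58.6 and 77.4 CPM in pro-HSC/HPC, 48.6, 82.0 and 83.9 CPM in pre-HSC I and 68.0, 102 and 95.5 CPM in pre-HSC II. It had 63.4, 65.4, 69.9 and 52.8 CPM in E8.5 HE, 75.2, 62.1 and 66.2 CPM in E9.5 HE and 43.4, 58.1 and 38.4 CPM in E10.5 HE, against 93.1, 79.3 and 68.3 CPM in E8.5 EC, 106, 72.8 and 96.5 CPM in E9.5 EC and 56.4, 65.9 and 72.9 CPM in E10.5 EC. Most populations overlapped for Utp20, but its pre-HSC II libraries were all above E10.5 HE.

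Nob1 (chr8:109936389-109948938), the endonuclease of the last small subunit rRNA cut, had 62.5, 94.7 and 49.8 CPM in pro-HSC/HPC, 114, 67.2 and 61.5 CPM in pre-HSC I and 136, 99.0 and 68.9 CPM in pre-HSC II. It had 122, 117, 101 and 112 CPM in E8.5 HE, 48.0, 109.5 and 48.1 CPM in E9.5 HE and 54.3, 49.8 and 49.1 CPM in E10.5 HE, against 233, 229 and 330.0 CPM in E8.5 EC, 68.2, 124 and 62.9 CPM in E9.5 EC and 109.7, 55.8 and 60.7 CPM in E10.5 EC. At E9.5 replicate 2 was the highest library of Nob1 in each of the 3 populations. Ltv1 (chr10:12898444-12912943), which escorts the small subunit precursor during export, had 67.6, 66.6 and 67.9 CPM in pro-HSC/HPC, 101, 67.1 and 74.5 CPM in pre-HSC I and 131, 104 and 105 CPM in pre-HSC II. It had 209, 133, 70.2 and 124 CPM in E8.5 HE, 76.5, 82.1 and 59.4 CPM in E9.5 HE and 63.7, 65.5 and 63.7 CPM in E10.5 HE, against 316, 322 and 228 CPM in E8.5 EC, 124, 164 and 104 CPM in E9.5 EC and 132, 113 and 152 CPM in E10.5 EC. Ltv1 was lower in HE than in EC on each day without overlap. Noc4l (chr5:111077438-111082401), whose yeast counterpart acts in small subunit export, had 31.4, 48.7 and 35.8 CPM in pro-HSC/HPC, 74.8, 49.9 and 47.7 CPM in pre-HSC I and 111, 84.4 and 57.0 CPM in pre-HSC II. It had 180.4, 106, 46.1 and 75.1 CPM in E8.5 HE, 34.0, 41.2 and 18.8 CPM in E9.5 HE and 22.5, 24.3 and 62.3 CPM in E10.5 HE, against 287, 227 and 162 CPM in E8.5 EC, 40.1, 54.9 and 35.2 CPM in E9.5 EC and 63.6, 57.8 and 59.2 CPM in E10.5 EC. Noc4l was the only member with a higher value in every E10.5 EC library than in every E9.5 EC library.

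Large subunit assembly includes the complex of Pes1, Bop1 and Wdr12, which joins the precursor before the internal spacer is cut. Bop1 (chr15:76283426-76307699) had 30.3, 28.3 and 36.9 CPM in pro-HSC/HPC, 59.6, 37.8 and 39.8 CPM in pre-HSC I and 74.9, 61.5 and 68.4 CPM in pre-HSC II. It had 177, 101, 41.4 and 65.6 CPM in E8.5 HE, 24.1, 33.7 and 23.7 CPM in E9.5 HE and 26.97, 24.4 and 31.5 CPM in E10.5 HE, against 272, 178 and 133 CPM in E8.5 EC, 40.6, 36.2 and 35.9 CPM in E9.5 EC and 69.8, 27.9 and 52.5 CPM in E10.5 EC. Every E9.5 library of HE and EC was below every E8.5 library. Pes1 (chr11:3863978-3880007) had 59.3, 77.8 and 59.4 CPM in pro-HSC/HPC, 66.7, 63.7 and 59.8 CPM in pre-HSC I and 82.9, 71.2 and 87.2 CPM in pre-HSC II. It had 129.6, 89.2, 66.2 and 100.1 CPM in E8.5 HE, 61.6, 66.0 and 58.4 CPM in E9.5 HE and 46.8, 47.3 and 59.7 CPM in E10.5 HE, against 228, 210.2 and 129.5 CPM in E8.5 EC, 82.3, 93.5 and 85.5 CPM in E9.5 EC and 91.8, 33.8 and 55.1 CPM in E10.5 EC. Pes1 was apart between HE and EC at E9.5, where every HE library was lower. Wdr12 (chr1:60133712-60155344) had 119, 201 and 108 CPM in pro-HSC/HPC, 258, 220.3 and 151 CPM in pre-HSC I and 321, 315 and 222 CPM in pre-HSC II. It had 219.9, 163, 127 and 231 CPM in E8.5 HE, 84.2, 134 and 87.9 CPM in E9.5 HE and 89.5, 72.8 and 70.9 CPM in E10.5 HE, against 421, 366 and 419 CPM in E8.5 EC, 130.1, 184 and 119 CPM in E9.5 EC and 158, 124 and 108 CPM in E10.5 EC. Wdr12 was lower in HE without overlap at E8.5 and E10.5. All pre-HSC II libraries of Bop1 and Pes1 exceeded those of pre-HSC I, while Wdr12 overlapped there.

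Nucleostemin (Gnl3, chr14:31825619-31832317), a nucleolar GTPase of large subunit assembly named for its abundance in stem cells, had 245, 247 and 283 CPM in pro-HSC/HPC, 296, 266 and 257 CPM in pre-HSC I and 412, 312 and 380.4 CPM in pre-HSC II. It had 294, 350.2, 228 and 333 CPM in E8.5 HE, 218, 266 and 247 CPM in E9.5 HE and 133, 87.5 and 86.0 CPM in E10.5 HE, against 589, 523 and 533 CPM in E8.5 EC, 340.0, 356 and 387 CPM in E9.5 EC and 235, 124 and 196 CPM in E10.5 EC. At E10.5 the order of pre-HSC II over pre-HSC I over HE held for every library. Nip7 (chr8:109580777-109584828), an rRNA-binding factor, had 397, 497 and 522 CPM in pro-HSC/HPC, 386, 478 and 353 CPM in pre-HSC I and 814, 429.7 and 453 CPM in pre-HSC II. It had 1017, 823, 551 and 528 CPM in E8.5 HE, 689.6, 679.7 and 660.3 CPM in E9.5 HE and 263, 188 and 152 CPM in E10.5 HE, against 1403, 1522 and 1137 CPM in E8.5 EC, 782, 830.2 and 1071 CPM in E9.5 EC and 519, 373 and 297 CPM in E10.5 EC. Every E10.5 HE library of Nip7 was below every E9.5 HE library, which lay within the wide E8.5 HE range, and EC libraries were lower without overlap on each later day. Nop2 (chr6:125081901-125094771), an rRNA methyltransferase, had 63.9, 56.6 and 58.9 CPM in pro-HSC/HPC, 93.6, 94.99 and 83.1 CPM in pre-HSC I and 117, 151 and 139 CPM in pre-HSC II. It had 237, 138, 71.1 and 118 CPM in E8.5 HE, 63.3, 73.2 and 39.3 CPM in E9.5 HE and 41.2, 44.7 and 55.9 CPM in E10.5 HE, against 361, 237 and 215 CPM in E8.5 EC, 93.2, 123 and 70.0 CPM in E9.5 EC and 97.6, 74.1 and 74.6 CPM in E10.5 EC. In EC every E8.5 library of Nop2 was above every later one. In HE, E8.5 replicate 3, at 71.1 CPM, lay below E9.5 replicate 2, at 73.2 CPM. All pre-HSC I and pre-HSC II libraries of Nop2 were above all E10.5 HE libraries. Noc3l (chr19:38862618-38893727) had 36.5, 37.5 and 34.9 CPM in pro-HSC/HPC, 42.9, 41.3 and 34.2 CPM in pre-HSC I and 46.5, 49.0 and 52.4 CPM in pre-HSC II. It had 40.4, 34.7, 29.9 and 56.8 CPM in E8.5 HE, 29.7, 42.3 and 34.4 CPM in E9.5 HE and 30.1, 35.5 and 14.5 CPM in E10.5 HE, against 61.8, 64.3 and 67.7 CPM in E8.5 EC, 53.7, 55.6 and 38.04 CPM in E9.5 EC and 42.3, 45.9 and 23.0 CPM in E10.5 EC. In Noc3l the populations lay close together, and pre-HSC II alone of the blood populations was above E10.5 HE without overlap.

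Hemogenic endothelium was compared with endothelium of the same day to see how the cells that give rise to blood differ from their neighbours. At E8.5, 23 of the 37 members fell in HE and none rose, against 1.73% of all genes tested that were called lower. Log2 differences are those of edgeR's quasi-likelihood fit with their standard error, the population named first minus the one named after it. The median over the members was -0.85, against 0 over all genes tested. Heatr1 was lower in E8.5 HE (log2 difference -1.15 ± 0.20, adjusted p = 5.2e-04), and so were Nolc1 (log2 difference -1.14 ± 0.22, adjusted p = 0.0015) and Ddx21 (log2 difference -1.02 ± 0.23, adjusted p = 0.0056). By role, 1 of 4 polymerase I genes (Tcof1), 3 of 4 chaperones, 5 of 7 snoRNP genes, 6 of 11 small subunit and 8 of 11 large subunit factors fell. Utp20, Ubtf, Rrs1 and Polr1a had the smallest differences, from -0.37 for Ubtf to -0.21 for Polr1a, and did not pass. For 24 members the HE and EC libraries did not overlap, against 8.07% of all genes tested that were lower without overlap.

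The size of the E8.5 result depended on single libraries. The count was 10 without E8.5 EC replicate 1, 11 without E8.5 EC replicate 2, 8 without E8.5 HE replicate 3 and 15 without E8.5 HE replicate 4, and it was 3 in a fit of the E8.5 libraries alone. Without E8.5 HE replicate 3 the median difference was -0.65. Of the 10 markers listed for endothelium 6 were higher in E8.5 HE. Their summed level was 2648 to 3030 CPM in HE against 2019 to 2390 CPM in EC, with no marker at 0. Their mean log2(CPM + 1) was 7.53 in E8.5 HE against 6.57 in E8.5 EC. The part of these markers in the result was not tested.

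At E9.5 no member was called in HE against EC, where 0.302% of all genes tested were called and all of those were higher. All 37 differences were negative, with a median of -0.47, against -0.01 over all genes tested. Unadjusted p was under 0.05 for 9 members in edgeR and DESeq2 also called 0. Ltv1 had the lowest value (log2 difference -0.85 ± 0.27, adjusted p = 0.30), and Gnl3 (log2 difference -0.57 ± 0.22, adjusted p = 0.54) and Dkc1 (log2 difference -0.55 ± 0.21, adjusted p = 0.53) followed by p. The libraries of 20 members did not overlap, all lower in HE, against 6.6% of all genes tested. Same-numbered E9.5 libraries deviated together, and with the replicate number as a block within each day, a fit added after seeing the data, 5 members were called lower (Ncl, Nop56, Nop58, Dkc1 and Ltv1), while a block common to all days called 0.

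At E10.5, 7 members fell in HE against EC and none rose, against 1.37% of all genes tested that were called lower. They were Heatr1 (log2 difference -0.97 ± 0.22, adjusted p = 0.011), Gnl3 (log2 difference -0.86 ± 0.22, adjusted p = 0.024), Ltv1 (log2 difference -1.04 ± 0.27, adjusted p = 0.028), Wdr43, Rrp1b, Dkc1 and Nip7. Wdr43, a processome protein, had 145.1, 127 and 127 CPM in E10.5 HE, against 299.6, 197 and 229.5 CPM in E10.5 EC. Rrp1b, a counterpart of a yeast large subunit factor, had 36.8, 27.8 and 33.7 CPM in E10.5 HE, against 79.9, 65.9 and 68.6 CPM in E10.5 EC. All 37 differences were negative, with a median of -0.65, against 0.00 over all genes tested, and for 17 members the libraries did not overlap, against 8.96% of all genes tested. The count was 1 without E10.5 EC replicate 1, without E10.5 EC replicate 3, without E10.5 HE replicate 2 or without E10.5 HE replicate 3, and 3 without E10.5 HE replicate 1. It was 2 in a fit of the E10.5 HE and EC libraries alone and 11 with library totals in place of scaling factors. The 24 S phase genes listed summed to between 2213 and 3055 CPM in E10.5 HE, against 3325 to 4562 CPM in E10.5 EC. Their sums in HE and EC overlapped at E8.5 and at E9.5. The part of these genes in the result was not tested.

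The 7 members called at E10.5 were all among the 23 called at E8.5, in comparisons that share no library, which is 100% of the smaller and 30.4% of the larger list. The larger list held 23 of the 37 members, so a large overlap was likely for any 7 of them. Across the 37 members the differences at E8.5 and E10.5 had a Spearman correlation of 0.41, a description over genes that share libraries. The change of the HE minus EC difference between days was tested itself, and no member was called for E9.5 minus E8.5 (median change 0.38, 1 member with unadjusted p under 0.05) or for E10.5 minus E8.5 (median change 0.19, 1 member). DESeq2 also called 0 in each. So a count of 23, 0 and 7 over the days does not show that the deficit of HE differed between days. In these tests 0.847% and 2.99% of all genes were called.

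**Figure D3:**
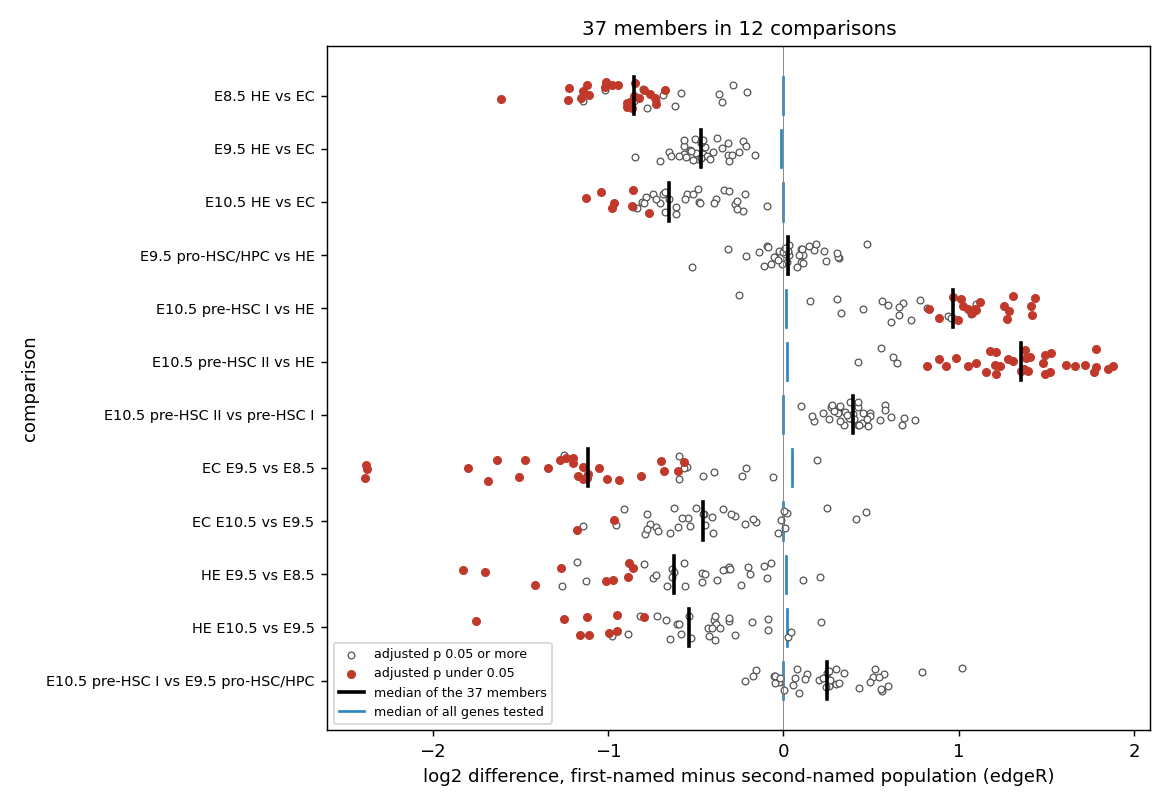
Log2 difference of each of the 37 members (points) in 12 comparisons, the population named ahead of "vs" minus the other, from the edgeR fit. Filled points have an adjusted p under 0.05, the black bar is the median of the members and the blue bar that of all genes tested. The members' median lies left of 0 in HE against EC and at the later against the earlier day within HE and within EC, near 0 for E9.5 pro-HSC/HPC against HE, and right of 0 in the comparisons headed by pre-HSC I or pre-HSC II.

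The step from endothelium to blood could be read at 2 days. At E9.5 no member was called in pro-HSC/HPC against HE, with 0.656% of all genes tested called. The median difference was 0.03, against 0.02 over all genes tested, 22 members were positive and 15 negative, no member had an unadjusted p under 0.05, and DESeq2 also called 0. Wdr12 had the largest positive value (log2 difference 0.48 ± 0.27, adjusted p = 0.85) and Nip7 the largest negative value (log2 difference -0.52 ± 0.27, adjusted p = 0.78). Ncl, Rrp1b and Nip7 were lower in all pro-HSC/HPC libraries than in all HE libraries, against 6.86% of all genes tested. Without the hemoglobin-rich pro-HSC/HPC replicates 2 and 3 the median was 0.04. That fit keeps 1 pro-HSC/HPC library and borrows its spread from the remaining populations, so its count of 0 called members says nothing about stability. Erythroid markers summed to between 11.8 and 12122 CPM in pro-HSC/HPC, against 7.55 to 26.0 CPM in E9.5 HE, with none of the 7 at 0 in all libraries of either and 3 called higher. Endothelial markers summed to between 2381 and 2738 CPM in pro-HSC/HPC, against 3134 to 3728 CPM in E9.5 HE, with none at 0. The part of these markers in the result was not tested.

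At E10.5, 18 members rose in pre-HSC I against HE and none fell, against 3.08% of all genes tested that were called higher. The median difference was 0.96, against 0.01 over all genes tested. Gnl3 rose (log2 difference 1.42 ± 0.22, adjusted p = 1.7e-04), as did Heatr1 (log2 difference 1.28 ± 0.22, adjusted p = 5.2e-04) and Dkc1 (log2 difference 1.10 ± 0.21, adjusted p = 0.0014). Of the polymerase I genes 3 of 4 rose, with Polr1b at 1.41 ± 0.35, Ubtf at 1.31 ± 0.31 and Tcof1 at 1.26 ± 0.31 on the log2 scale. All 4 chaperones rose, among them Ncl (log2 difference 1.03 ± 0.20, adjusted p = 0.0016). Of the snoRNP genes 5 of 7 rose, of the large subunit factors 4 of 11 and of the small subunit factors 2 of 11, Heatr1 and Wdr43. Bysl was the only member with a negative value (log2 difference -0.25 ± 0.42, adjusted p = 0.81), and Imp4, Pes1 and Ltv1 had log2 differences of 0.15 to 0.33 that did not pass. A difference between roles was not tested. For 28 members every pre-HSC I library was above every HE library, against 11% of all genes tested.

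The count in pre-HSC I was 11 without E10.5 HE replicate 2 and 10 without pre-HSC I replicate 2. Of the 24 S phase genes 11 rose with the members in pre-HSC I, among them Mcm2, Mcm3, Uhrf1 and Pold1, and 4 of 6 macrophage and granulocyte markers tested were higher, summing to between 96.2 and 162 CPM in pre-HSC I, with Emr1 at 0, against 6.71 to 7.12 CPM in HE, with Elane and Emr1 at 0. Endothelial markers summed to between 1188 and 1731 CPM in pre-HSC I against 3889 to 4294 CPM in HE, with 7 of 10 called lower and none at 0. Their part in the result was not tested.

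In pre-HSC II, 33 members were higher than in E10.5 HE and none lower, against 8.75% of all genes tested that were called higher. This comparison shares the HE libraries with the preceding one and is not independent of it. The median was 1.36, against 0.02 over all genes tested. Gnl3 had a log2 difference of 1.85 ± 0.22 (adjusted p = 4.1e-07), Heatr1 of 1.66 ± 0.22 (adjusted p = 2.5e-06) and Ncl of 1.48 ± 0.20 (adjusted p = 2.9e-06). The 4 that did not pass were Imp4, Wdr75, Pes1 and Bysl, with log2 differences of 0.55, 0.62, 0.65 and 0.42. In 33 members the libraries did not overlap, against 18.6% of all genes tested. Leaving out each library in turn gave 25 to 30 called members. Markers of mesenchyme summed to between 29.2 and 36.4 CPM in pre-HSC II against 163 to 610 CPM in HE, with 4 of 7 called lower and none at 0, and macrophage and granulocyte markers to between 346 and 462 CPM in pre-HSC II against 6.71 to 7.12 CPM in HE, with Emr1 at 0 and 4 of 6 called higher. Endothelial markers summed to between 455 and 535 CPM in pre-HSC II against 3889 to 4294 CPM in HE, with 10 of 10 called lower. Of the 24 S phase genes 18 rose with the members in pre-HSC II, with a median log2 difference of 0.91. Their part was not tested.

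Pre-HSC II was also compared with pre-HSC I, and no member was called, where 4.42% of all genes tested were called, nearly all of them lower. All 37 differences were positive, with a median of 0.39, against 0 over all genes tested, and 4 had an unadjusted p under 0.05. DESeq2 also called 0. The largest were Rcl1 (log2 difference 0.75 ± 0.46, adjusted p = 0.63) and Rrp1b (log2 difference 0.69 ± 0.30, adjusted p = 0.32). For 14 members all pre-HSC II libraries were above all pre-HSC I libraries, against 6.78% of all genes tested.

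The blood step at E10.5 was set against that at E9.5 in a test of the difference of differences. No member was called, where 0.0722% of all genes tested were called, but 36 of 37 values were positive, the median was 0.88, against -0.04 over all genes tested, and 20 members had an unadjusted p under 0.05. Ncl (log2 difference 1.24 ± 0.28, adjusted p = 0.074), Gnl3 (log2 difference 1.33 ± 0.30, adjusted p = 0.074) and Heatr1 (log2 difference 1.29 ± 0.31, adjusted p = 0.080) came closest. DESeq2 called 6, namely Ncl, Ddx21, Heatr1, Gnl3, Nip7 and Dkc1. The count was 2 without E10.5 HE replicate 1 and 1 without pre-HSC I replicate 1. It was 6 with library totals in place of scaling factors. Without the hemoglobin-rich pro-HSC/HPC libraries the median was 0.81, in a fit that keeps 1 pro-HSC/HPC library and from which no count of calls is drawn. The blood populations themselves, pre-HSC I against pro-HSC/HPC, differed in no called member (median 0.25, against 0 over all genes tested, 2 members with an unadjusted p under 0.05), and DESeq2 called 1, Nop56. In that comparison 1.45% of all genes tested were called, and the count was 1 without pre-HSC I replicate 1. Ncl, Nop56, Wdr43, Bop1 and Nop2 were higher in all pre-HSC I libraries than in all pro-HSC/HPC libraries, against 8.59% of all genes tested.

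Changes with embryonic day were read within EC and within HE. In EC, 26 members fell at E9.5 against E8.5 and none rose, against 9.56% of all genes tested that were called lower. The median was -1.11, against 0.05 over all genes tested. Bop1 fell (log2 difference -2.37 ± 0.38, adjusted p = 1.4e-04), as did Rrp9 (log2 difference -2.39 ± 0.42, adjusted p = 3.2e-04) and Noc4l (log2 difference -2.38 ± 0.42, adjusted p = 3.6e-04), and these 3 had the largest falls. By role 2 of 4 polymerase I genes, 3 of 4 chaperones, 5 of 7 snoRNP genes, 8 of 11 small subunit and 8 of 11 large subunit factors fell. Utp20 (0.19), Rrs1 (-0.06), Polr1a (-0.21) and Gar1 (-0.24) had the log2 differences nearest to 0, and none of the 4 passed. For 32 members no library overlapped, all lower at E9.5, against 17.5% of all genes tested. Endothelial markers summed to between 2583 and 2922 CPM in E9.5 EC against 2019 to 2390 CPM in E8.5 EC, with 4 of 10 called higher and 1 lower and none at 0, and their part was not tested. The scaling factors of E8.5 EC were the lowest of all, at 0.789 to 0.811 against 0.884 to 1.25 elsewhere. With library totals alone the median over all genes moved to 0.34, that of the members was -0.81 and 17 were called lower.

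In HE, 9 members fell at E9.5 against E8.5 and none rose, against 3.58% of all genes tested that were called lower, with a median of -0.62 against 0.02. The smallest p were those of Bop1 (log2 difference -1.82 ± 0.36, adjusted p = 0.0039), Nop2 (log2 difference -1.27 ± 0.30, adjusted p = 0.011) and Noc4l (log2 difference -1.70 ± 0.40, adjusted p = 0.011), followed by Nop56, Wdr43, Rrp9, Nop16, Ltv1 and Wdr12. For 8 members the libraries did not overlap, all lower at E9.5, against 9.49% of all genes tested. All 9 called members were also among the 26 called in EC, in libraries that are not shared, which is 100% of the HE list and 34.6% of the EC list. The EC list held 26 of the 37 members, so a large overlap was likely for any 9 of them. Across the 37 members the HE and EC changes had a Spearman correlation of 0.90, a description over genes that share libraries. The HE count was 1 without E8.5 HE replicate 1, 5 without E8.5 HE replicate 2, 15 without E8.5 HE replicate 3, 3 without E9.5 HE replicate 1 and 1 without E9.5 HE replicate 3. It was 1 in a fit of these HE libraries alone, and 14 with DESeq2. Endothelial markers summed to between 3134 and 3728 CPM in E9.5 HE against 2648 to 3030 CPM in E8.5 HE, with 3 of 10 called higher (Cdh5, Emcn and Robo4), 1 lower (Egfl7) and none at 0, and their part was not tested.

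At E10.5 against E9.5, 9 members fell in HE and none rose, against 2.15% of all genes tested that were called lower, with a median of -0.54 against 0.02. Nip7 fell most (log2 difference -1.75 ± 0.28, adjusted p = 8.2e-04), followed by Gnl3 (log2 difference -1.25 ± 0.22, adjusted p = 0.0016) and Heatr1 (log2 difference -1.16 ± 0.22, adjusted p = 0.0032), and Ncl, Ddx21, Nop58, Npm1, Rrp1b and Mrto4 also fell. For 20 members the libraries did not overlap, all lower at E10.5, against 12.3% of all genes tested. The count was 5 without E9.5 HE replicate 2 or replicate 3 and 4 without E10.5 HE replicate 2 or replicate 3. Endothelial markers summed to between 3889 and 4294 CPM in E10.5 HE against 3134 to 3728 CPM in E9.5 HE, with 3 of 10 called higher (Egfl7, Tek and Esam). Blood progenitor markers summed to between 50.8 and 82.4 CPM in E10.5 HE against 68.3 to 100.3 CPM in E9.5 HE, with 2 of 8 called higher (Ptprc and Myb). None of these markers was at 0 in all libraries of either, and their part was not tested. In EC, Gnl3 (log2 difference -0.96 ± 0.22, adjusted p = 0.030) and Nip7 (log2 difference -1.17 ± 0.28, adjusted p = 0.040) fell and no other member was called, against 0.453% of all genes tested that were called lower, with a median of -0.46 against 0. Both are among the 9 of HE. In EC 15 members were lower without overlap, against 10.4% of all genes tested, and Noc4l was higher without overlap, against 9.25%. The EC count was 0 without any E9.5 EC replicate or E10.5 EC replicate 2 or 3, 4 without E10.5 EC replicate 1, 4 with DESeq2 and 1 in a fit of these EC libraries alone.

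Set side by side, the earlier and later intervals moved members to different degrees. Bop1 had log2 differences in HE of -1.82 ± 0.36 over the earlier interval and 0.02 ± 0.37 over the later, and in EC of -2.37 ± 0.38 over the earlier and 0.41 ± 0.37 over the later. Noc4l had -1.70 ± 0.40 and then 0.22 ± 0.41 in HE, and -2.38 ± 0.42 and then 0.47 ± 0.41 in EC. The falls of Bop1 and Noc4l lay in the earlier interval. Nip7 had -0.11 ± 0.26 and then -1.75 ± 0.28 in HE, and -0.60 ± 0.27 and then -1.17 ± 0.28 in EC. Gnl3 had -0.31 ± 0.20 and then -1.25 ± 0.22 in HE, and -0.60 ± 0.22 and then -0.96 ± 0.22 in EC. In HE the larger value of Nip7 and Gnl3 lay in the later interval. The intervals share the E9.5 libraries, the members were picked after their values were seen, and the difference between intervals was not tested. Across the 37 members the earlier EC change had a Spearman correlation of -0.40 with the GC content of the transcripts and 0.27 with gene length. The correlation with GC content was -0.16 over the 13608 genes tested that have a GC value, and that with length was 0.26 over all genes tested. The part of either in the result was not tested.

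**Figure D4:**
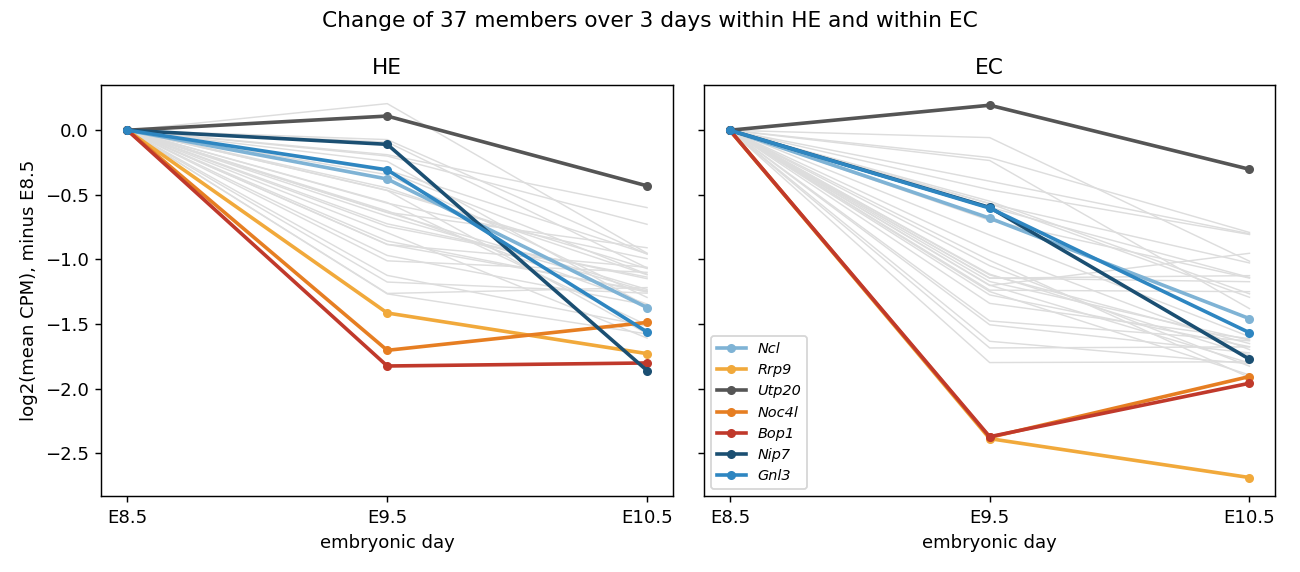
Change of log2(mean CPM) relative to E8.5 over 3 embryonic days in HE (left) and EC (right), a grey line for each member and coloured lines for 7 named members. Bop1, Noc4l and Rrp9 drop between E8.5 and E9.5, Nip7 and Gnl3 drop further between E9.5 and E10.5, and Utp20 stays closest to its E8.5 level.

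Other genes of the pathway, from lists drawn up with earlier results of these data known, were counted in the same tests. In E8.5 HE against EC, 5 of 41 other small subunit factors fell, among them Nop9 (-1.19 ± 0.27) and Nat10 (-0.97 ± 0.23), and 11 of 53 other large subunit factors, among them Nol8 (-0.77 ± 0.17) and Ddx18 (-0.98 ± 0.23). In pre-HSC I against HE, 5 of 41 and 6 of 53 rose, among them Nop9 (1.33 ± 0.30), Nat10 (0.95 ± 0.25), Nol8 (1.00 ± 0.18) and Lyar (1.17 ± 0.24). In pre-HSC II against HE the counts were 16 of 41 and 26 of 53, all higher. In EC at E9.5 against E8.5, 18 of 41 and 29 of 53 fell, among them Tbl3 (-1.95 ± 0.33), Wdr74 (-2.01 ± 0.32) and Eif6 (-2.12 ± 0.40). No gene of either list moved the other way in these comparisons. Of all genes tested, 1.73% fell in E8.5 HE, 3.08% rose in pre-HSC I, 8.75% rose in pre-HSC II and 9.56% fell in E9.5 EC.

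Of the 11 other polymerase I genes tested, Cd3eap, a polymerase subunit, and Taf1d, of its promoter selectivity factor, were the 2 called both in E8.5 HE and in pre-HSC I. Cd3eap was lower in E8.5 HE than in EC (log2 difference -1.18 ± 0.20, adjusted p = 4.8e-04) and higher in pre-HSC I than in HE (log2 difference 1.12 ± 0.22, adjusted p = 0.0021). Taf1d was lower in E8.5 HE than in EC (log2 difference -0.61 ± 0.16, adjusted p = 0.015) and higher in pre-HSC I than in HE (log2 difference 0.99 ± 0.17, adjusted p = 5.4e-04). Of 10 spliced host genes of small nucleolar RNAs, 6 fell in E8.5 HE against EC and 7 rose in pre-HSC II against HE, among them Gas5 (-0.56 ± 0.16 and 1.20 ± 0.17) and Snhg4 (-1.48 ± 0.25 and 1.89 ± 0.28). In HE at E9.5 against E8.5, where 9 members fell, the host genes had a median log2 difference of 0.33, with 1 called higher (Snhg12) and none lower. In EC over the same days their median was -0.13, against -1.11 for the members, with 2 called lower (Snhg4 and Snhg7). In HE at E10.5 against E9.5, 4 fell (Snhg3, Snhg4, Snhg5 and Snhg12).

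The 40 cytosolic ribosomal protein genes, the building blocks that these factors assemble, were seldom called. None was called in HE against EC on any of the 3 days, and 1 rose in pre-HSC I against HE (Rps2). Their median difference was -0.42 in E8.5 HE against EC, 0.25 in pre-HSC I against HE and 0.49 in pre-HSC II against HE. The corresponding medians of the 37 biogenesis factors were -0.85, 0.96 and 1.36. Whether the lists differ was not tested, and ribosomal protein genes have many near-identical processed copies, so their values are uncertain.

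Myc, a textbook activator of ribosome biogenesis genes, and its relatives were measured in the same libraries. Myc had 31.5, 48.0 and 45.8 CPM in pro-HSC/HPC, 98.7, 150.4 and 113 CPM in pre-HSC I and 217, 229 and 227 CPM in pre-HSC II. It had 261, 196, 24.1 and 165 CPM in E8.5 HE, 33.5, 62.5 and 61.2 CPM in E9.5 HE and 61.7, 41.7 and 54.9 CPM in E10.5 HE, against 642, 499.7 and 466 CPM in E8.5 EC, 85.3, 108 and 112 CPM in E9.5 EC and 133, 128 and 209.7 CPM in E10.5 EC. As for most members, E8.5 EC was highest, and E8.5 HE replicate 3 was the lowest library of its population. Unlike most members, Myc had its lowest mean in pro-HSC/HPC, at 41.8 CPM, against 52.8 CPM in E10.5 HE. From E9.5 to E10.5 its mean CPM went from 52.4 to 52.8 in HE and from 102 to 157 in EC. The median log2 differences of the members over these days were -0.54 in HE and -0.46 in EC. Myc was lower in HE than in EC at E8.5 (log2 difference -1.73 ± 0.40, adjusted p = 0.0080) and at E10.5 (log2 difference -1.57 ± 0.44, adjusted p = 0.045). It was higher in pre-HSC II than in E10.5 HE (log2 difference 2.09 ± 0.45, adjusted p = 0.0011), while in pre-HSC I against HE it did not pass (log2 difference 1.19 ± 0.44, adjusted p = 0.10). In EC it was lower at E9.5 than at E8.5 (log2 difference -2.39 ± 0.45, adjusted p = 6.4e-04).

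Mycn had 157, 124 and 144.7 CPM in pro-HSC/HPC, 148, 154 and 248.7 CPM in pre-HSC I and 94.3, 139 and 169 CPM in pre-HSC II. It had 17.97, 40.1, 50.1 and 45.8 CPM in E8.5 HE, 49.5, 45.4 and 68.2 CPM in E9.5 HE and 31.2, 24.0 and 33.7 CPM in E10.5 HE, against 23.5, 27.7 and 14.2 CPM in E8.5 EC, 66.0, 51.7 and 93.5 CPM in E9.5 EC and 24.3, 29.8 and 41.8 CPM in E10.5 EC. Every blood library was above every HE and EC library. Mycn was higher in pro-HSC/HPC than in E9.5 HE (log2 difference 1.38 ± 0.33, adjusted p = 0.049) and in pre-HSC I than in E10.5 HE (log2 difference 2.63 ± 0.35, adjusted p = 3.4e-05). A link of Myc or Mycn to the level of the members was not tested. Max, the partner of both, ran from 5.95 to 29.3 CPM over the libraries with no called difference in the comparisons named here, and Mycl stayed at or under 1.57 CPM.

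**Figure D5:**
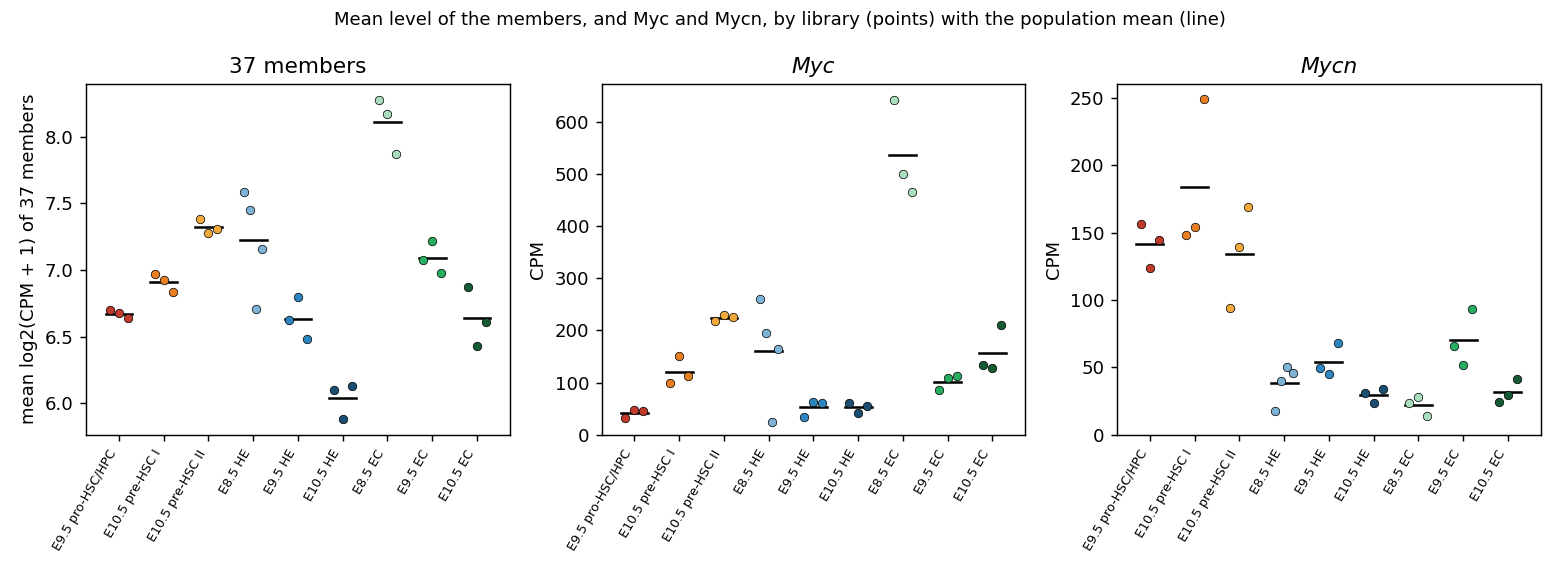
Mean log2(CPM + 1) of the 37 members (left) and CPM of Myc (middle) and Mycn (right) in each library (points) with the population mean (line), by population. E8.5 EC is highest for the members and for Myc and lowest for Mycn, and the 3 blood populations are highest for Mycn.

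Over the 9 population means, the members' mean level had a Spearman correlation of 0.78 with Myc and 0.03 with Mycn. Without E8.5 EC these were 0.69 and 0.48 over 8 populations. They describe 9 points that share scaling and libraries, and carry no test.

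Some values rest on gene models that overlap others, and no strand setting is given in the sources used here. The largest overlap was that of Bysl with Ccnd3 on the opposite strand, over 358 bases or 9.29% of the Bysl model, and that of Nhp2 with Rmnd5b covered 4.18%. Reads from such stretches cannot be assigned between the partners.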

How the data were processed

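RNA was measured in 28 libraries of 9 sorted populations. The authors deposited raw, unscaled counts for each gene symbol. The submitters' processing notes list TopHat, SAMtools, Subread, featureCounts 1.6.2 and the build mm9, and per the file headers the columns are in featureCounts layout. The strand setting, the handling of reads with several matches and the sort gates were not stated there.

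Of 24015 genes, 15238 passed edgeR's filterByExpr (minimum count 10). Counts were fitted in 1 edgeR 4.0.16 quasi-likelihood model (R 4.3.3, limma 3.58.1) with a mean for each population and TMM (trimmed mean of M values) scaling. P-values were adjusted by Benjamini-Hochberg over 15238 genes, and a call is an adjusted p under 0.05. CPM uses the TMM-scaled totals. The common biological coefficient of variation was 0.563. The fit was tested on simulated data.

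Alternatives were other scalings, filters, DESeq2 1.42.0, a replicate block, fits of the compared populations alone and leaving out each library. Same-numbered libraries deviated together in E8.5 HE and EC (correlations of 0.174 to 0.215 over genes), E9.5 HE and EC (0.105 to 0.279) and E9.5 pro-HSC/HPC and HE (0.135 to 0.344), and not in every pair of the other comparisons. This pairing comes from the data, since the labels give the numbers only. The members named with full statistics are the 3 of smallest p among those called in a comparison, a panel of members set per role, and those at the ends of a range. Members and lists were chosen with earlier results of these data known. Promoter sequences are from RefSeq GRCm38.p6, and no coordinate was converted between builds. Intervals of shares of counts are 95% Wilson intervals and cover counting error only.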

Additional observations from a re-analysis of the deposited data

How the results depend on the processing

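No called member reversed its direction under the alternatives tried; members that were not called were not followed. Of 280 counts under alternatives 227 stayed within 1.5 times and 53 moved, and of 1891 checks on single calls 1574 were kept and 317 lost. The 227 include counts of 0 that stayed at 0, so they do not measure the stability of the comparisons with called members. Leaving out each library gave 8 to 26 called members in E8.5 HE against EC, 1 to 6 in E10.5 HE against EC, 10 to 17 in pre-HSC I against HE and 25 to 30 in pre-HSC II against HE. It gave 1 to 15 in HE at E9.5 against E8.5, 4 to 9 in HE at E10.5 against E9.5, 18 to 23 in EC at E9.5 against E8.5 and 0 to 4 in EC at E10.5 against E9.5. It gave 0 to 1 in pre-HSC I against pro-HSC/HPC and 0 to 2 for the difference of the blood steps.

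Fits of the compared populations alone called 3 in E8.5 HE against EC, 2 in E10.5 HE against EC, 1 in HE at E9.5 against E8.5, 1 in EC at E10.5 against E9.5 and 1 for the blood steps, with fewer libraries to estimate the spread. DESeq2 called 14 in HE at E9.5 against E8.5, 4 in EC at E10.5 against E9.5, 1 in pre-HSC I against pro-HSC/HPC and 6 for the blood steps. Upper-quartile factors called 1 in EC at E10.5 against E9.5. A filter of 10 CPM in 3 libraries called 4 there and 2 for the blood steps. The replicate block over all days called 4 in EC at E10.5 against E9.5 and 1 in pre-HSC I against pro-HSC/HPC, and it moved no other count by more than 1.5 times. Added after seeing the data, library totals with no scaling factors called 11 in E10.5 HE against EC, 17 in EC at E9.5 against E8.5, 4 in EC at E10.5 against E9.5, 1 in pre-HSC I against pro-HSC/HPC and 6 for the blood steps. With them the median of all genes was 0.17 in E8.5 HE against EC, where it was 0 with TMM factors, and 0.13 to 0.34 at the later against the earlier day, where it was 0 to 0.05. A replicate block within each day, also added, called 5 in E9.5 HE against EC, 20 in E10.5 HE against EC, 28 in pre-HSC I against HE, 2 in pre-HSC II against pre-HSC I and 17 for the blood steps. The numbers did not pair all libraries at E10.5, and 26 of 28 libraries correlated best with their own number on the same day. The causes were not tested. Each population has 3 or 4 libraries of 100 cells, which limits the precision of every count.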

Other observations

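The row Rn45s, which counts reads of the rRNA precursor left in these polyA-selected libraries, was not used as a measure of rRNA transcription. It held 1.32% to 2.98% of the counts in pro-HSC/HPC, 0.448% to 1.54% in pre-HSC I and 0.637% to 1.33% in pre-HSC II. In HE it held 0.227% to 0.617% at E8.5, 1.42% to 2.65% at E9.5 and 0.541% to 1.97% at E10.5. In EC it held 0.188% to 0.605% at E8.5, 1.02% to 2.34% at E9.5 and 0.680% to 1.15% at E10.5. Its mean CPM was lowest in the E8.5 populations, where the biogenesis factors were high, and highest in the 3 populations of E9.5. Single libraries overlapped between days, with 0.541% in E10.5 HE replicate 1 and 1.97% in E10.5 HE replicate 3. In each population of 3 libraries, replicate 3 held the largest share. Over the 9 population means its level had a Spearman correlation of -0.55 with the mean level of the members, a description without a test.

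Among other genes with growth-related roles, 8 of 24 S phase genes fell in HE at E9.5 against E8.5, and 9 fell and 1 rose in EC over the same days. Of 14 genes of rRNA exonucleases and the exosome, 4 fell in HE and 5 in EC at E9.5 against E8.5, and 5 rose in pre-HSC II against HE. Of 23 translation factors 5 rose in pre-HSC II against HE and 6 fell in EC at E9.5 against E8.5. Of 14 p53 target genes 1 rose and 2 fell in pre-HSC II against HE, where 1333 of all 15238 genes tested rose and 1934 fell. Of all genes tested, 3.58% fell in HE and 9.56% fell in EC at E9.5 against E8.5.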
